A study of Homo sapiens with 4 samples.

Results

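The nuclear genes of oxidative phosphorylation were examined in HGC-27, a human gastric cancer cell line, with and without a RUNX3 knock-out. Members were chosen by a rule on symbols, with earlier results of these data known. They were the symbols that open with NDUFA, NDUFB, NDUFC, NDUFS or NDUFV and a digit (complex I), the 4 SDH subunit genes (complex II), symbols that open with UQCR (complex III), the symbols from COX4 to COX8 that continue with A, B or C (complex IV), and symbols that open with ATP5 (complex V). The rule took 87 of the 25559 gene symbols counted, 39 in complex I, 4 in complex II, 9 in complex III, 15 in complex IV and 20 in complex V. Of these, 78 passed the filter on low counts and were tested.

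The study compared 2 poly(A) RNA-seq libraries of wildtype HGC-27 cells (wt) with 2 of cells edited by Cas9 from a lentiviral vector against RUNX3 (RUNX3 KO), which had passed through puromycin selection and single-cell cloning. Both groups were grown in serum-containing medium and received no other treatment in the labels. How many clones were used, and if the libraries came from separate cultures, is not stated in the sources used here. The p-values therefore measure only the spread between these libraries, which may be technical. A difference between KO and wt cannot be told apart from a difference between clones. Nor can it be told apart from effects of the vector, Cas9 or puromycin, as no such treatment of wt is stated in these sources. Libraries held from 11731401 to 12110876 reads on genes, and replicate counts were close to sampling noise (chi-square per degree of freedom 1.22 in wt and 1.18 in RUNX3 KO). RUNX3 had 351 and 308 counts in wt and 225 and 185 in RUNX3 KO, a log2 fold change of -0.70 (SE 0.0961). A count over the whole gene does not show whether the edited transcript still encodes the protein.

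Oxidative phosphorylation passes electrons from NADH through complex I, or from succinate through complex II, to ubiquinone, then through complex III to cytochrome c and through complex IV to oxygen. Complexes I, III and IV pump protons out of the matrix, and complex V, the ATP synthase, lets them back through its c-ring to drive ATP synthesis. Each complex except II also contains subunits encoded in mitochondrial DNA, which are not analysed here. Many nuclear subunit genes carry sites for NRF1, for ETS factors of the GABP type and for YY1 near their start, and the nuclear subunits are needed in fixed proportions.

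The 2 members with the largest rises lie on one chromosome arm and the 2 with the largest falls on another, so the upstream sequences of these 4 are shown, as the place where shared motifs would be looked for. SDHA and NDUFS6, which lie near each other on chromosome 5, rose, and UQCR10 and NDUFA6, both on chromosome 22, fell. The 250 bases before each start (RefSeq, GRCh38.p14, read 5′ to 3′ on the gene's strand) are given in lower case, and capitals mark every match on either strand to the NRF1 motif GCGCANGCG, the ETS motif CCGGAAG, the YY1 motif AAGATGG or the RUNX motif TGTGGT.
SDHA (chr5:218070-218319, plus strand): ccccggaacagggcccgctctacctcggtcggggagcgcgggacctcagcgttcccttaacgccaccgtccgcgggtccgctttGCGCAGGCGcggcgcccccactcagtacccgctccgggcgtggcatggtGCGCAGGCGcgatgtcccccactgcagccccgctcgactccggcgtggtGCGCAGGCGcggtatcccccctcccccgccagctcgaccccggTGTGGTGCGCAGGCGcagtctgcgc
NDUFS6 (chr5:1801157-1801406, plus strand): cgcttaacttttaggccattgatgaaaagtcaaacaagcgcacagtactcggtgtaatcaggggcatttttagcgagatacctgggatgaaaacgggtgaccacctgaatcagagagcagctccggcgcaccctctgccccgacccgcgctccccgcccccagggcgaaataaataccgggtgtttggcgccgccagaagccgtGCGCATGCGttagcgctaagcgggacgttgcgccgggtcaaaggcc
UQCR10 (chr22:29767119-29767368, plus strand): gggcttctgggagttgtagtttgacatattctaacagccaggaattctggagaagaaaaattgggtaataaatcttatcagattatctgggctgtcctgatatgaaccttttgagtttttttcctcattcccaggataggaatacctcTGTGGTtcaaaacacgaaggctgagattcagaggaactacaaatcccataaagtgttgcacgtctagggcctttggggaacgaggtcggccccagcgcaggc
NDUFA6 (chr22:42090773-42091022, minus strand): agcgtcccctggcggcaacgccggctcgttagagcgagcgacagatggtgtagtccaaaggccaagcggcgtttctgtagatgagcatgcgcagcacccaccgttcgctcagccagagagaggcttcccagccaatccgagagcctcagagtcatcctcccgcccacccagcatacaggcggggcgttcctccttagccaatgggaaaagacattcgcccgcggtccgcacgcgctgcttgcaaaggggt

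The SDHA window held 4 NRF1 matches, the nearest ending 11 bases before the start, and 1 RUNX match directly before that one. NDUFS6 held 1 NRF1 match from 46 to 38 bases before the start. UQCR10 held 1 RUNX match from 102 to 97 bases before the start, and NDUFA6 held no match in the 250 bases shown. Promoters of 62 of the 78 tested members were in the RefSeq table, as windows of 300 bases that include 50 after the start, and in these longer windows UQCR10 also held an NRF1 match and NDUFA6 a YY1 match. The NRF1 motif was in 20 of the 62 (32.3%), against 15.5% of the 9758 promoters of tested genes and 8.05% of all 27305. The ETS motif was in 18 (29.0%, against 19.8% and 10.7%), the YY1 motif in 16 (25.8%, against 7.91% and 6.06%) and the RUNX motif in 12 (19.4%, against 8.94% and 13.1%). Among members called higher the RUNX motif was in 3 of 19 promoters, among those called lower in 3 of 15, and among those not called in 6 of 28. A match to letters is a description of the sequence and not a site of binding.

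As a whole the oxidative phosphorylation genes split evenly. With edgeR's quasi-likelihood test and Benjamini-Hochberg adjustment over all genes, 20 of the 78 tested members (25.6%) were higher in RUNX3 KO and 20 (25.6%) were lower, against 24.5% higher and 24.4% lower of all 12967 genes tested, and 38 were not called. The members' share was thus close to the background in both directions. Their median log2 fold change was -0.01 and the median size of the change, whatever its sign, was 0.11, against 0.19 over all genes tested. CPM below is the count scaled by edgeR to the TMM-adjusted library size. Summed over the members it was 14728 and 15009 in wt and 14739 and 14650 in RUNX3 KO, a ratio of 0.988 with overlapping groups.

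No member reached a fold change of 2, and the counts by a fold of at least 2 with an unadjusted p of at most 0.05 were 0 higher and 0 lower, against 2.11% and 4.01% of all genes. At an unadjusted p under 0.05 without a minimum fold, edgeR's test gave 23 members higher and 22 lower, and DESeq2 called 9 higher and 12 lower after adjustment. The log2 fold changes ranged from -0.57 to 0.61. SDHA alone passed a 1.5-fold change. In 57 of the 78 (73.1%) the wt and KO libraries did not overlap, against 72.7% of all genes. A library left out in turn took the number called down to 12 without RUNX3 KO replicate 1, 11 without RUNX3 KO replicate 2, 37 without wt replicate 1 and 30 without wt replicate 2. These are 15.4%, 14.1%, 47.4% and 38.5% of the members, beside 22.8%, 20.1%, 42.1% and 41.5% of all genes tested in the same fits. Of the 40 calls, 10 were kept in each of these 4 fits, 6 higher (SDHA, NDUFS6, NDUFA9, NDUFV2, UQCRC2 and UQCRFS1) and 4 lower (NDUFA6, UQCR10, NDUFA13 and NDUFA4).

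**Figure D1:**
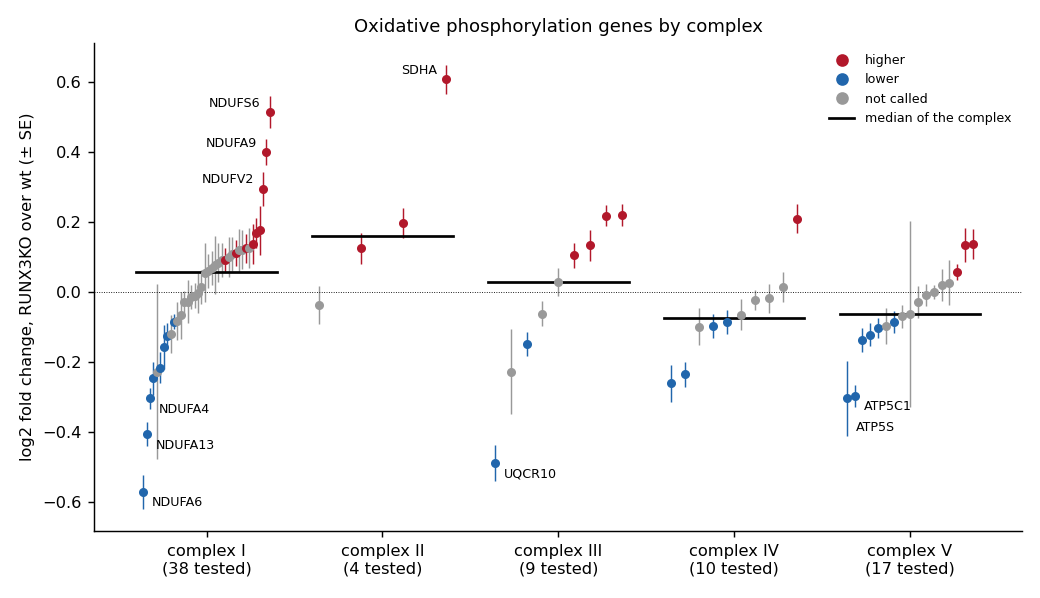
Log2 fold change of RUNX3 KO over wt (vertical axis, with SE) of the 78 tested members, grouped by complex and ordered by value within each; colours give the call at an adjusted p under 0.05 and the black line is the complex's median. Complex I spreads from -0.57 to 0.52, the medians of complexes II and III lie above 0, and those of complexes IV and V lie below 0.

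Complex II, succinate dehydrogenase, was the complex with the highest median. It joins the citric acid cycle to the respiratory chain and is made of SDHA, the flavoprotein that oxidises succinate, SDHB, which carries the iron-sulfur clusters, and the membrane anchors SDHC and SDHD. SDHA (chr5:218418-257197 on GRCh37, as are all gene positions from here on) had 1186 and 1181 counts in wt and 1824 and 1818 in RUNX3 KO. It was at 100.3 ± 0.270 CPM in wt and 152.9 ± 2.35 CPM in RUNX3 KO (SD, n = 2), the largest rise among the members (log2 fold change 0.61, SE 0.0414, adjusted p = 1.35e-23).

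SDHD had 1289 and 1244 counts in wt and 1417 and 1514 in RUNX3 KO (0.20, SE 0.0431, adjusted p = 6.50e-05), and SDHB had 1245 and 1206 against 1341 and 1357 (0.13, SE 0.0438, adjusted p = 0.0130). SDHC did not change beyond its spread, with 820 and 777 counts in wt and 776 and 795 in RUNX3 KO (-0.04, SE 0.0545, adjusted p = 0.608), and its groups overlapped. Of the 4 genes, 3 were thus higher and 0 lower, beside 24.5% and 24.4% of all genes, with 0 lower also at an unadjusted p under 0.05 and by DESeq2, which called 2 higher. The summed CPM of the 4 was 384.6 and 373.5 in wt and 454.0 and 456.2 in RUNX3 KO, 1.20 times as high. SDHA kept its call with each library left out, while SDHB lost it without either KO library or without wt replicate 2 and SDHD lost it without RUNX3 KO replicate 2. The table also counts 3 SDHA pseudogenes, SDHAP1 at 114 to 136 reads, SDHAP2 at 58 to 80 and SDHAP3 at 37 to 59, none of them called.

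Complex I, NADH dehydrogenase, holds the widest spread. Its nuclear genes encode 7 core subunits, which carry the flavin and the iron-sulfur clusters of the peripheral arm, and accessory subunits, of which the NDUFB group sits mostly in the part of the membrane arm that lies away from the peripheral arm. Of 38 tested genes, 9 (23.7%) were higher, 8 (21.1%) lower and 21 not called, shares close to the 24.5% and 24.4% of all genes, with a median of 0.06. Their summed CPM was 5716 and 5879 in wt and 5704 and 5618 in RUNX3 KO.

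Among the core subunits, NDUFV2, an iron-sulfur subunit of the NADH-binding module, had 943 and 961 counts in wt and 1149 and 1209 in RUNX3 KO (log2 fold change 0.30, SE 0.0478, adjusted p = 1.39e-07). NDUFS3 (0.13) and NDUFS1 (0.09) were also called higher, while NDUFV1, which holds the flavin, was at 2440 and 2512 counts in wt against 2424 and 2527 (-0.01). Of the 7 core genes, 3 (42.9%) were higher and 0 lower, beside 24.5% and 24.4% of all genes, with 3 higher and 0 lower at an unadjusted p under 0.05 by edgeR and 1 higher and 0 lower by DESeq2, and the median was 0.09. NDUFV2 was the core gene whose call held with each library left out.

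Accessory subunits held the extremes in both directions. NDUFS6, a zinc-binding subunit needed late in assembly (chr5:1801521-1816162), had 1015 and 1008 counts in wt and 1455 and 1463 in RUNX3 KO. It rose from 85.7 ± 0.394 to 122.5 ± 1.12 CPM (log2 fold change 0.52, SE 0.0448, adjusted p = 9.80e-18). NDUFA9, which lies where the peripheral and membrane arms meet (chr12:4758261-4803483), rose from 156.7 ± 3.73 to 206.9 ± 1.51 CPM (0.40, SE 0.0359, adjusted p = 4.12e-17), with 1881 and 1818 counts in wt and 2454 and 2474 in RUNX3 KO. In both genes the KO libraries lay far outside the range of the wt libraries.

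NDUFA6 (chr22:42481530-42486888) had the largest fall of all members, with 1201 and 1307 counts in wt and 815 and 888 in RUNX3 KO. Its level was 106.2 ± 6.38 CPM in wt and 71.5 ± 3.40 CPM in RUNX3 KO (log2 fold change -0.57, SE 0.0496, adjusted p = 9.05e-18). NDUFA13, also known as GRIM-19 (chr19:19626545-19639863), had 2737 and 2865 counts in wt and 2108 and 2155 in RUNX3 KO (-0.41, SE 0.0344, adjusted p = 2.17e-18). NDUFA4, named for complex I but now placed in complex IV (chr7:10971570-10979780), had 4302 and 4500 counts in wt and 3650 and 3544 in RUNX3 KO (-0.30, SE 0.0298, adjusted p = 2.68e-15). In none of the 3 did the groups overlap. NDUFA13 shares exon sequence with the weakly counted YJEFN3, a mean of 95.5 reads, on the same strand.

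In the NDUFB group 0 of 11 genes were higher and 3 (27.3%) lower, beside 24.5% and 24.4% of all genes. At an unadjusted p under 0.05 edgeR gave 2 higher and 4 lower, DESeq2 called 0 higher and 2 lower, and the group's median was -0.07. The called genes were NDUFB7 (-0.25, with 1270 and 1176 counts in wt and 1033 and 1047 in RUNX3 KO), NDUFB8 (-0.13) and NDUFB9 (-0.09). None of these 3 calls held with each library left out.

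Complex III, the cytochrome bc1 complex, passes electrons from ubiquinol to cytochrome c. Of its 9 tested genes, 4 (44.4%) were higher, 2 (22.2%) lower and 3 not called, beside 24.5% and 24.4% of all genes, with a median of 0.03 and a summed CPM of 1435 and 1453 in wt and 1498 and 1506 in RUNX3 KO. UQCRC2, a core subunit, had 3027 and 3001 counts in wt and 3494 and 3591 in RUNX3 KO (log2 fold change 0.22, SE 0.0308, adjusted p = 2.29e-09). UQCRFS1, the Rieske iron-sulfur protein that takes the first electron from ubiquinol, had 3407 and 3341 against 3905 and 4016 (0.22, SE 0.0297, adjusted p = 1.03e-09). UQCR11 (0.13) and the other core subunit UQCRC1 (0.10) were called higher by smaller amounts. Without wt replicate 1 the median of the complex was -0.03, and without wt replicate 2 it was 0.09.

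UQCR10, a small accessory subunit (chr22:30163358-30166402), moved the other way, with 1044 and 1048 counts in wt and 738 and 765 in RUNX3 KO. It fell from 88.6 ± 0.266 to 63.1 ± 0.782 CPM (log2 fold change -0.49, SE 0.0515, adjusted p = 6.47e-14). UQCRH, the acidic hinge protein, had 2472 and 2523 counts in wt and 2254 and 2292 in RUNX3 KO (-0.15, SE 0.0344, adjusted p = 1.49e-04). UQCRHL, a retrocopy of UQCRH, had 152 and 174 against 141 and 140 counts (-0.23, SE 0.120, adjusted p = 0.111), and 272 of its 276 bases are identical to the parent's, so reads may have been split between them. Of the 6 calls in this complex, those of UQCRC2, UQCRFS1 and UQCR10 were kept with each library left out, and UQCRH lost its call without either KO library.

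**Figure D2:**
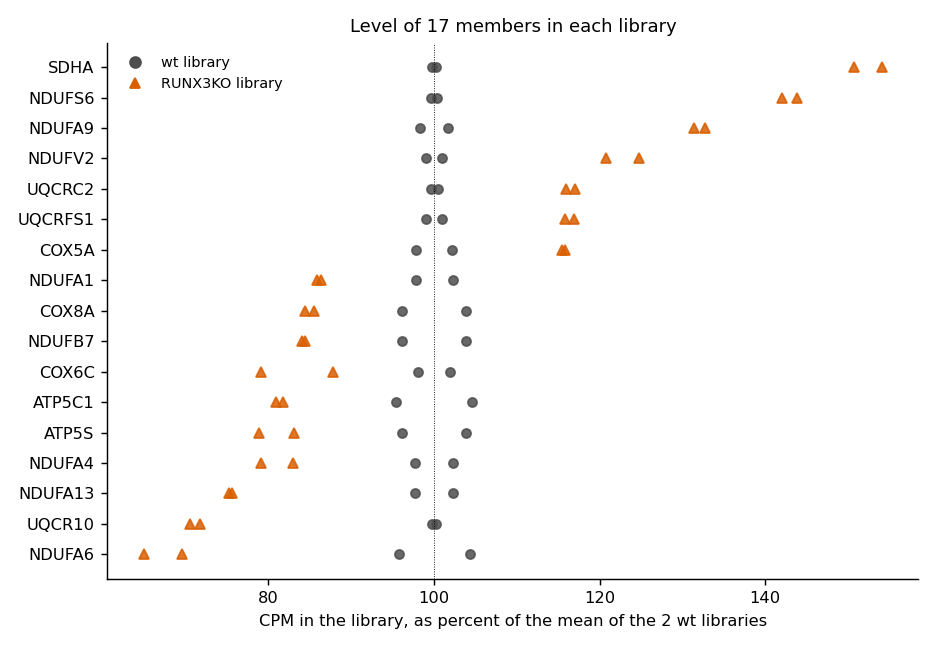
Level of the 17 called members with a log2 fold change of at least 0.2 in size, as CPM in each library in percent of the mean of the 2 wt libraries; circles are wt and triangles RUNX3 KO libraries. Of the 17, 7 lie above and 10 below the wt libraries, a separation that their choice by call and size all but fixes.

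Complex IV, cytochrome c oxidase, passes electrons from cytochrome c to oxygen. Of its 10 tested genes 1 was higher, 4 lower and 5 not called, beside 24.5% and 24.4% of all genes, with a median of -0.08 and a summed CPM of 1600 and 1648 in wt and 1557 and 1554 in RUNX3 KO, below both wt libraries. COX6C had 928 and 963 counts in wt and 748 and 845 in RUNX3 KO (log2 fold change -0.26, SE 0.0533, adjusted p = 2.09e-05). COX8A, the ubiquitous form of subunit VIII, had 2237 and 2414 against 1987 and 1999 (-0.24, SE 0.0366, adjusted p = 4.54e-08). COX7C (-0.10, adjusted p = 0.0141) and COX7B (-0.09, adjusted p = 0.0367) were lower by less, and DESeq2 called neither.

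COX5A, a subunit on the matrix side, was the exception, with 1429 and 1366 counts in wt and 1614 and 1648 in RUNX3 KO (0.21, SE 0.0410, adjusted p = 9.38e-06). None of the 5 calls in this complex held with each library left out: all 5 were lost without RUNX3 KO replicate 1, and COX6C alone was kept without RUNX3 KO replicate 2. COX6A1, COX7A2, COX6B1, COX5B and COX7A2L, with log2 fold changes from -0.10 to 0.01, were not called. COX7A2L, counted here by its symbol, is a supercomplex factor.

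Complex V, the ATP synthase, makes ATP from the proton gradient. Of 17 tested genes 3 (17.6%) were higher, 6 (35.3%) lower and 8 not called, beside 24.5% and 24.4% of all genes, with a median of -0.06, a range of -0.30 to 0.14 and a summed CPM of 5593 and 5656 in wt and 5527 and 5516 in RUNX3 KO. The 2 subunits that make up most of its catalytic head differed by at most 0.06. ATP5B, the catalytic beta subunit, had 26334 and 26106 counts in wt and 26131 and 26787 in RUNX3 KO (log2 fold change 0.00, SE 0.0201), and ATP5A1, the alpha subunit, had 11272 and 11152 against 11586 and 11969 (0.06, SE 0.0225, adjusted p = 0.0271). ATP5C1, the gamma subunit that forms the rotating shaft inside the head, had 3697 and 4046 counts in wt and 3167 and 3193 in RUNX3 KO (-0.30, SE 0.0317, adjusted p = 1.29e-13).

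Of the stalk genes, ATP5H (-0.14) and ATP5O (-0.12) were lower while ATP5J (-0.10) and ATP5F1 (-0.01) were not called. ATP5J2, a membrane subunit, had 1094 and 1076 counts in wt and 1254 and 1150 in RUNX3 KO (0.13, SE 0.0475, adjusted p = 0.0140). ATP5S, a coupling factor that is no subunit of the enzyme, had 200 and 216 counts in wt and 164 and 176 in RUNX3 KO (-0.30, SE 0.108, adjusted p = 0.0146). By its symbol it is among the 6 genes counted as lower. ATP5SL, also counted by its symbol and no subunit, was not called (0.03). None of the 9 calls in complex V held with each library left out, and DESeq2 kept 2 of them, ATP5C1 and ATP5H.

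**Figure D3:**
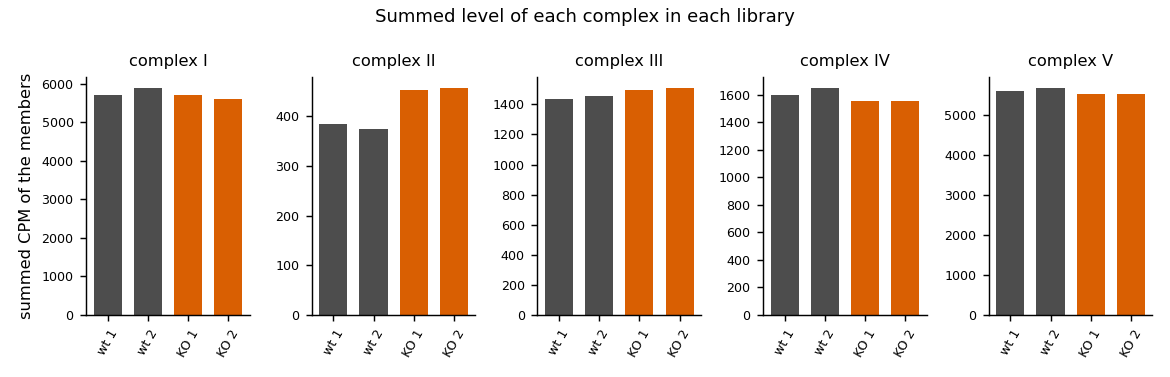
CPM summed over the members of each complex in each library (bars from 0, grey wt, orange RUNX3 KO; KO stands for RUNX3 KO, and the vertical scale differs between panels). Complex II stands at 384.6 and 373.5 in wt and 454.0 and 456.2 in RUNX3 KO, while the other complexes differ by under 5% between the group means.

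Where a muscle or testis form exists, the ubiquitous gene carried all or nearly all of the reads in both groups, with COX6A2, COX7A1 and COX7B2 at 0 counts in every library, which allows up to 3 counts in each. COX6B2 had 2 and 2 counts in wt and 1 and 0 in RUNX3 KO, and COX8C had 2 counts in 1 wt library and 0 elsewhere. NDUFA4L2, a paralog of NDUFA4 known as a target of the hypoxia response, had 42 and 30 counts in wt and 31 and 31 in RUNX3 KO. Per kilobase of transcript (RPKM on the canonical GENCODE transcript) it made up 2.06% and 1.42% of the NDUFA4 pair in wt and 1.80% and 1.85% in RUNX3 KO, which overlap.

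Subunit c, which forms the proton-carrying ring of the ATP synthase, is encoded by 3 genes that give the same mature protein. By RPKM, ATP5G2 made up 67.3% and 66.6% of the set in wt and 64.4% and 64.7% in RUNX3 KO, and ATP5G1 19.6% and 20% in wt and 22.4% and 22.7% in RUNX3 KO. ATP5G3 stayed between 12.6% and 13.4%. By counts ATP5G1 was higher (0.14, adjusted p = 0.00613), and ATP5G2 (-0.10, adjusted p = 0.00169) and ATP5G3 (-0.09, adjusted p = 0.0209) were lower. DESeq2 called none of the 3, and the shares themselves were not tested.

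Levels among members spanned a wide range. NDUFB9 stood first by RPKM, at 2684 and 2757 in wt and 2606 and 2523 in RUNX3 KO, ahead of ATP5B at 1268 and 1258 in wt and 1259 and 1267 in RUNX3 KO, whereas the median of the 37 complex I genes with a transcript length was 105 RPKM in wt. NDUFB9 alone took 21896 counts in wt replicate 1 and shares exon sequence with TATDN1 and MTSS1 on the opposite strand. ATP5E, the epsilon subunit of the ATP synthase, stood last of the 77 tested members with a transcript length, with 27 to 32 counts a library. Over all 156 bases of its retrocopy ATP5EP2 (5 to 8 counts), 150 are identical to ATP5E, so a low count of this gene is uncertain. Canonical transcripts of some members carry long ends, which lowers their RPKM, and NDUFB9, ATP5B and ATP5E were chosen for this paragraph after their values were seen.

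The 9 members that did not pass the filter had at most 8 counts in any library. NDUFC2-KCTD14 and ATP5J2-PTCD1, read-through genes, were at 0, ATP5L2 had 4 and 2 counts in wt and 1 and 2 in RUNX3 KO, and the others are given above. Of the 78 tested members, 47 have pseudogenes named after them in the annotation, 185 in all. Exon sequence is shared with another tested gene in 17, of which 16 have such a gene on the opposite strand. On the same strand, NDUFA13 shares it with YJEFN3, NDUFB2 with ADCK2 (a mean of 248.2 reads) and NDUFS3 with PTPMT1 (432.0 reads). ATP5J2 and NDUFC2 share it on the same strand with the read-through genes above. The counts of all these genes carry an uncertainty that the libraries' spread does not show.

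The largest changes were found in stretches of chromosome whose other genes moved the same way. For each member the neighbourhood was taken as the 20 nearest tested genes on each side along the chromosome, fewer near a chromosome end, and its median log2 fold change was set beside that of the member. SDHA and NDUFS6 lie 1.6 Mb apart at the end of the short arm of chromosome 5, and the neighbourhood median of both was 0.41, with 16 of 22 and 31 of 40 neighbours above 0. Between the pair lie 18 other tested genes, of which 11 were called higher and 4 lower, with a median of 0.37. These 2 members share many neighbours and are not separate observations.

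UQCR10 and NDUFA6 lie on chromosome 22, where the median log2 fold change of 288 tested genes was -0.52. The neighbourhood median was -0.64 for UQCR10, with 0 of 40 neighbours above 0, and -0.52 for NDUFA6, with 1 of 40. Of the 126 tested genes between these 2, 109 were called lower and 2 higher. Less its neighbourhood median, UQCR10 came to 0.15 instead of -0.49 and NDUFA6 to -0.05 instead of -0.57. SDHA came to 0.20 and NDUFS6 to 0.11.

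NDUFA9 (0.40) lies among genes on chromosome 12 with a median of 0.33, COX5A (0.21) among genes on chromosome 15 with 0.22 and ATP5C1 (-0.30) among genes on chromosome 10 with -0.23, which left 0.07, -0.01 and -0.07. Other members changed where the neighbourhood median was near 0. NDUFA4 (-0.30) had a neighbourhood median of 0.05, COX6C (-0.26) of 0.03, NDUFV2 (0.30) of 0.05, UQCRC2 (0.22) of 0.04 and UQCRFS1 (0.22) of 0.08. NDUFA13 (-0.41) lay in a neighbourhood at -0.14. NDUFB6 (0.01) and NDUFB1 (-0.03) were not called, in neighbourhoods at 0.25 and -0.27.

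Of the 11 members in neighbourhoods above 0.1, 10 had a log2 fold change above 0, with 6 (54.5%) called higher and 1 (9.09%) lower, beside 768 (51.4%) higher and 165 lower of the 1494 genes in such neighbourhoods. Of the 12 in neighbourhoods below -0.1, 11 were below 0, with 8 (66.7%) called lower and 1 (8.33%) higher, beside 58.0% and 8.75% of 1554 genes. The 55 others had 13 (23.6%) higher and 11 lower, beside 24.4% and 21.5% of 9030 genes. The members' shares were thus near those of all genes in the same kind of neighbourhood. Across the 78 members Pearson's r between the 2 values was 0.729 and Spearman's rho 0.544, as a description, since neighbouring members share genes and all come from the same 4 libraries. Over all tested genes with a position r was 0.220 and rho 0.303. The SD of the members' log2 fold changes was 0.194 before and 0.134 after subtraction, and 35 of the 40 called members kept their sign. The part of the neighbourhood in the members' changes was not tested.

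Other genes of the pathway lie outside the symbol rule. Of 8 tested subunits among them, 2 were higher and 2 lower, near the 24.5% and 24.4% of all genes. These were NDUFAB1, the mitochondrial acyl carrier protein that complex I holds (0.23), CYC1, the cytochrome c1 of complex III (0.19), C14orf2 of the ATP synthase (-0.20) and COX4I1, the largest nuclear subunit of complex IV (-0.09). CYCS, cytochrome c itself, was not called at 0.02.

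Assembly factors are proteins that build the complexes but do not stay in them. Of 41 tested, 17 (41.5%) were higher and 2 (4.88%) lower, beside 24.5% and 24.4% of all genes, with a median of 0.13. The largest rises were NDUFAF3, for complex I, with 207 and 225 counts in wt and 300 and 291 in RUNX3 KO (0.44, SE 0.0944, adjusted p = 5.07e-05), and ATPAF1, for the F1 head of the ATP synthase, with 907 and 957 against 1261 and 1273 (0.43, SE 0.0474, adjusted p = 4.90e-13). NUBPL, which delivers iron-sulfur clusters to complex I (-0.31), and COX19 (-0.21) were lower. In the 30 assembly factors whose neighbourhood median was within 0.1 of 0, 14 were higher and 1 was lower, beside 24.4% and 21.5% of the 9030 genes in such neighbourhoods. Calls by DESeq2 or with a library left out are not given here for this list or the other lists outside the members. Their shares should therefore not be read as firmer than those of the members.

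Regulators of mitochondrial gene expression showed 7 of 13 (53.8%) higher and 0 lower, beside 24.5% and 24.4% of all genes, with 8 higher and 0 lower at an unadjusted p under 0.05 by edgeR. GABPB1, the partner that gives the ETS factor GABPA its activating domain, had 659 and 629 counts in wt and 987 and 966 in RUNX3 KO (0.59, SE 0.0546, adjusted p = 2.47e-16). It lies on chromosome 15 in a neighbourhood at 0.20. TFAM, which packages and transcribes mitochondrial DNA, had 1078 and 1082 against 1341 and 1347 (0.30, SE 0.0450, adjusted p = 1.41e-08). GABPA (0.09) and NRF1 (0.08) were not called, and YY1 was higher by 0.12 (adjusted p = 0.0159).

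**Figure D4:**
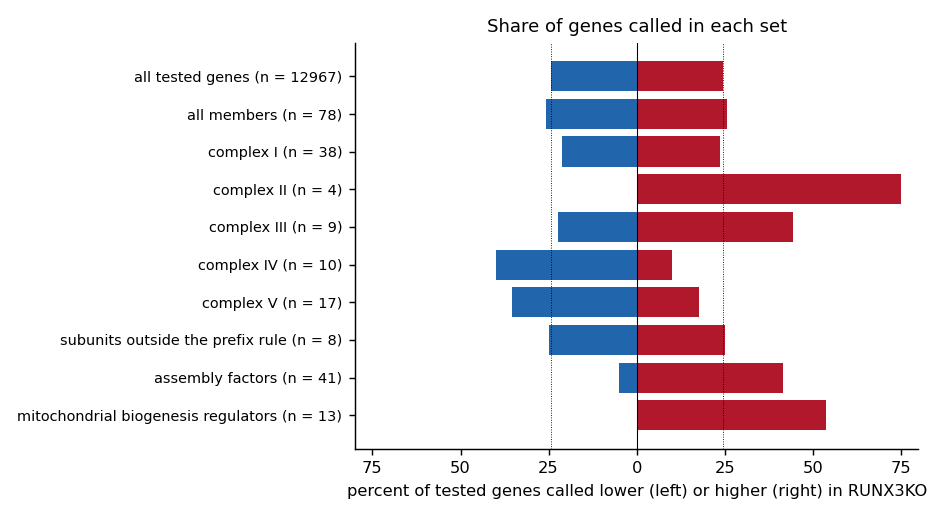
Percent of tested genes called higher (right) or lower (left) in RUNX3 KO at an adjusted p under 0.05, for all genes, the members, each complex and the 3 other lists, with n tested in brackets; dotted lines mark the shares of all genes. The members as a whole stand at 25.6% in both directions, next to 24.5% and 24.4% of all genes.

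The cells carry few epithelial markers. Of 6 gastric mucosa markers 5 were at 0 in every library and MUC6 had 1 count in 1 wt library, and of 5 epithelial markers EPCAM and KRT19 were at or near 0, whereas VIM had 57834 and 57486 counts in wt and 33828 and 35307 in RUNX3 KO. The summed CPM of the 3 mesenchymal markers was 4908 and 4879 in wt and 2867 and 2938 in RUNX3 KO, and that of the 4 fibroblast markers, all called lower, 2248 and 2193 against 1780 and 1796. The sum of the 5 epithelial markers was 2.97 and 2.80 in wt and 8.81 and 10.6 in RUNX3 KO, with CDH1 and KRT8 called higher. Of 5 immune markers CD3E was at 0 and the sum was between 1.248 and 2.457. These lists moved between the same libraries as the members above, and their part in the members' changes was not tested.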

How the data were processed

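The 4 libraries were grouped by genotype as wt or RUNX3 KO, 2 each. The authors deposited, library by library, raw read counts for each symbol, not normalized. The submitters' processing notes name bcl2fastq, HISAT2 2.1.0, HTSeq and hg19, whereas the paper's methods name STAR and featureCounts on GENCODE genes of hg19. The labels give a stranded kit, but how strand was treated in counting is not given in the sources used here. The 5 rows for unassigned reads took 25.9% to 28.1% of all counts and were left out. The counts were fitted with edgeR 4.0.16 under R 4.3.3. Genes passed filterByExpr (minimum count 10, minimum total 15), were scaled by TMM and compared by the quasi-likelihood test, with p-values of all 12967 genes adjusted by Benjamini-Hochberg, called at an adjusted p under 0.05, and the median log2 fold change over these genes was -0.0021. The biological coefficient of variation was 1.45%. With 2 libraries a group, 0.333 is the smallest p of an exact two-sided permutation test. Values after ± are SDs of 2 libraries.

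Positions were taken from GENCODE models on GRCh37, through RefSeq synonyms where symbols had changed. All 87 members had a position, as had 12078 of the tested genes. Promoters came from RefSeq on GRCh38.p14, and coordinates were not converted between builds. Named members were those past a 1.5-fold change, the 3 largest rises and falls called in each complex, the SDH genes and the paralog sets, and for other lists the 2 largest rises and falls. Others named were chosen after their values were seen. One gene that this rule takes is not reported here. The members and lists were chosen with earlier results of these data known. The steps were tested on simulated data. Alternatives were other scalings (DESeq2 size factors, library size alone, upper quartile), other tests (DESeq2 1.42.0, edgeR's exact test, limma-voom with limma 3.58.1), other filters, a block for the replicate number, subtraction of the neighbourhood median and each library left out in turn.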

Additional observations from a re-analysis of the deposited data

How the results depend on the processing

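Counts of calls moved with DESeq2's test, with single libraries and with the filter, while edgeR's exact test and limma-voom gave the same 20 higher and 20 lower. DESeq2's test gave 9 members higher and 12 lower in place of 20 and 20 (26.9% of members called, beside 28.5% of all genes), with 4 higher in complex I, 2 higher in complex III, 2 lower in complex IV and 0 higher and 2 lower in complex V. With each library left out in turn, where the lone library of a group is assumed to vary like the other group, 6 to 17 members were higher and 4 to 22 lower. By complex, 3 to 10 were higher and 3 to 9 lower in I, 1 to 3 higher in II, 2 to 3 higher and 1 to 2 lower in III, 0 to 1 higher and 0 to 4 lower in IV, and 0 to 2 higher and 0 to 7 lower in V. The medians then ranged from 0.0158 to 0.08195 in I, -0.03065 to 0.0895 in III, -0.0843 to -0.0427 in IV and -0.0976 to -0.0380 in V, so that the sign of complex III changed without wt replicate 1.

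Library size alone moved the median of the members to -0.0290 and that of complex IV to -0.0952, upper-quartile scaling likewise to -0.0297 and -0.0959, and both shifted the median of all genes by about 0.02. Under upper-quartile scaling 16 members were higher and 24 lower, and under library size alone 16 and 22. Without a filter 16 members were higher and 14 lower (36.6% of members called, beside 27.8% of all genes), with 2 lower in complex IV. With a minimum fold of 1.5 in place of 2, 1 member was higher and 0 lower. Less the neighbourhood median, the median of complex II was 0.10, and of the called members 1 lower in complex III and 0 higher in complex IV kept their sign, while 4 named calls changed sign, ATP5G2 to 0.0920, COX5A to -0.00683, COX7B to 0.00508 and UQCR10 to 0.15.

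Replicate numbers recur in both groups, but nothing in the labels says that a number marks a shared culture or day, and deviations of same-numbered libraries correlated at 0.0161 over 12967 genes, so the fit has no pairing. With a replicate block 20 members were higher and 20 lower, and no named call changed. Of the 40 calls, 10 held in every fit run. With 2 libraries a group, changes smaller than these may have been missed.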

Other observations

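Mitochondrial ribosomal proteins, which translate the subunits encoded in mitochondrial DNA, were mostly higher. Of 75 tested, 53 (70.7%) were higher and 4 (5.33%) lower in RUNX3 KO (edgeR's quasi-likelihood test, Benjamini-Hochberg adjusted), with a median log2 fold change of 0.20, beside 24.5% and 24.4% of all genes. MRPL46 had 436 and 494 counts in wt and 1020 and 959 in RUNX3 KO (1.08, SE 0.0604, adjusted p = 8.75e-29), and MRPS11 had 383 and 441 against 699 and 610 (0.65, SE 0.0707, adjusted p = 2.07e-13). Both lie on chromosome 15, in neighbourhoods with medians of 0.54 and 0.52. MRPL4 (-0.41) and MRPL52 (-0.34) fell, in neighbourhoods at -0.36 and -0.35. The other falls, of MRPL34 and MRPL40, lay in neighbourhoods at -0.23 and -0.57. Other rises lay where the neighbourhood median was near 0, among them MRPS30 (0.51, neighbourhood at 0.06), MRPL22 (0.42, at 0.05) and MRPS22 (0.41, at -0.003). How many of the 53 lay in such neighbourhoods is not given here. The difference in share between this list and the members was not tested.

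Enzymes of the citric acid cycle and of pyruvate dehydrogenase were higher in 10 of 18 (55.6%) and lower in 3 (16.7%), beside the same 24.5% and 24.4% of all genes. IDH2 had 1292 and 1299 counts in wt and 1994 and 2070 in RUNX3 KO (0.64, SE 0.0397, adjusted p = 7.83e-26), in a neighbourhood at 0.67, and IDH3A rose by 0.45 on the log2 scale in a neighbourhood at 0.30. MDH2 was lower (-0.11). In the 12 of these enzymes whose neighbourhood median was within 0.1 of 0, 7 were higher and 0 lower, beside 24.4% and 21.5% of the 9030 genes in such neighbourhoods. Of mitochondrial carriers and porins 2 of 8 were higher, VDAC1 (0.20) and VDAC2 (0.09), and 2 lower, the phosphate carrier SLC25A3 (-0.27) and the ADP/ATP carrier SLC25A5 (-0.06), which are shares near the 24.5% and 24.4% of all genes.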
